A study of Mus musculus with 8 samples.

Results

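PFI-3 alone was compared with its solvent DMSO in JUN TetON ESCs, a mouse embryonic stem cell line that expresses a JUN transgene when doxycycline is added. The comparison took the 2 PFI-3 libraries and the 2 DMSO libraries, 4 of the 8 libraries of the RNA-seq experiment, with the same-numbered libraries as pairs. The other 4 libraries came from cells given BI-9564, or PFI-3 and BI-9564 together (P+B). All 4 groups, DMSO included, carried the c-Jun TetOn genotype in OG2 transgenic ESCs (a background of 1/2 129SVJ, 3/8 C57B6 and 1/8 CBA, passage 12), grew without feeders in a 2i and LIF medium, and received 2 µg/ml doxycycline, so every value below was measured while JUN was induced. The labels give 6 h of treatment and no dose of either compound. The paper describes this RNA-seq as 8 h of JUN induction with 6 h of compound. The labels do not say whether the line was 1 clone, or whether the 2 libraries of a group came from separate cultures. The p-values therefore measure only the spread between these libraries. Each value is a TPM, a transcript abundance scaled to the same total in every library, made a whole number by the authors.

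PFI-3 binds the bromodomains, acetyl-lysine readers, of SMARCA2, SMARCA4 and PBRM1. SMARCA2 and SMARCA4 are the alternative ATPases of the BAF chromatin remodelling complex, and PBRM1 marks the related PBAF complex. BI-9564 binds the bromodomains of BRD9 and BRD7, other subunits of these complexes. JUN is a subunit of AP-1, a dimeric transcription factor that is kept low in naive ESCs and is high in many adherent somatic cells, where its target genes include adhesion, cytoskeletal and protease genes.

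The libraries had the transcripts of mouse ESCs. The 10 ESC markers summed to 4060 and 5270 TPM with DMSO and to 4495 and 5526 TPM with PFI-3. Of 10 fibroblast markers, which feeder cells would bring, 7 were listed at 0 in all 4 libraries and the sum was 0 to 5 TPM. Of 8 primitive endoderm markers, 5 were listed at 0 in all 4 and the sum was 3 to 5 TPM. The 8 trophoblast markers summed to 154 and 186 TPM with DMSO and to 93 and 116 TPM with PFI-3, most of it from Plet1, and Elf5 and Krt7 were listed at 0 in all 4. Library sums were 991574 to 991897 in the whole series and 10285 to 10451 genes per library reached a value of 5. TPM keeps no read number, so depth and counting error are unknown, and low whole-number values are coarse.

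With PFI-3 alone, no single gene passed the threshold, while most members of several gene groups lay on the same side in both pairs. Genes of the AP-1 family, of cell adhesion, of the actin cytoskeleton and of epithelial keratins were mostly lower. Genes of naive pluripotency, of the amino acid stress response and of sterol synthesis were mostly higher. Lower in both pairs were 8 of 12 AP-1, 6 of 8 integrin, 16 of 22 contractile and 14 of 21 keratin and junction genes. Higher in both were 16 of 19 naive, 13 of 17 amino acid stress and 17 of 29 sterol genes. Of all 10222 tested genes, 2292 were lower and 2789 higher in both pairs. The lists were chosen with earlier results of these data known. Genes entered the test if their mean over all 8 libraries was 5 or more, which 10222 did, and 0 of them (0%) had both an adjusted p under 0.05 (limma with the pairs as a block, Benjamini-Hochberg) and a change of at least 1.5-fold. The smallest adjusted p was 0.116. At an unadjusted p under 0.05, 538 genes (5.26%) were lower and 605 (5.92%) higher, 11.2% together. Centring each library on its median shifted the median of all tested genes to -0.03 and the split to 823 lower and 411 higher. Without the block the same counts were 313 and 381, again with 0 genes past the threshold. Of all tested genes 45.3% were lower with PFI-3 at any p, and these shares are the background for the counts of each gene list below. The libraries of both groups lay apart in 29.3% of all tested genes, 12.8% with both PFI-3 libraries lower and 16.5% with both higher, so a gene without overlap is common here. The median log2 fold change of all tested genes was 0.02, and the middle 90% lay between -0.40 and 0.45. For a single gene, exact permutation of 2 against 2 libraries gives no two-sided p below 0.333, so the p-values below rest on a spread estimated over all 8 libraries and shared among genes.

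The pairs share no library, so 1 pair shows whether a difference in the other recurs. In pair 1, 451 genes were at least 1.5-fold lower with PFI-3. Of these 101 (22.4%) were at least 1.5-fold lower in pair 2 as well, against 4.24% of all tested genes. At any size 242 of the 451 (53.7%) were lower in pair 2, against 41.8% of all tested genes. In the other direction 507 genes were at least 1.5-fold higher in pair 1. Of these 106 (20.9%) recurred in pair 2 at that size, against 5.49% of all tested genes. At any size 297 of the 507 (58.6%) were higher in pair 2, against 49.9% of all tested genes. Over all tested genes the share beyond 1.5-fold in both pairs was 0.988% lower and 1.04% higher. With a filter at a mean of 20 such genes were 31 lower and 18 higher. Low genes reach 1.5-fold more easily, so all tested genes are no matched background for these shares. Across genes, which are not independent replicates, the Pearson correlation between the pairs was 0.11 (n = 10222).

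**Figure D1:**
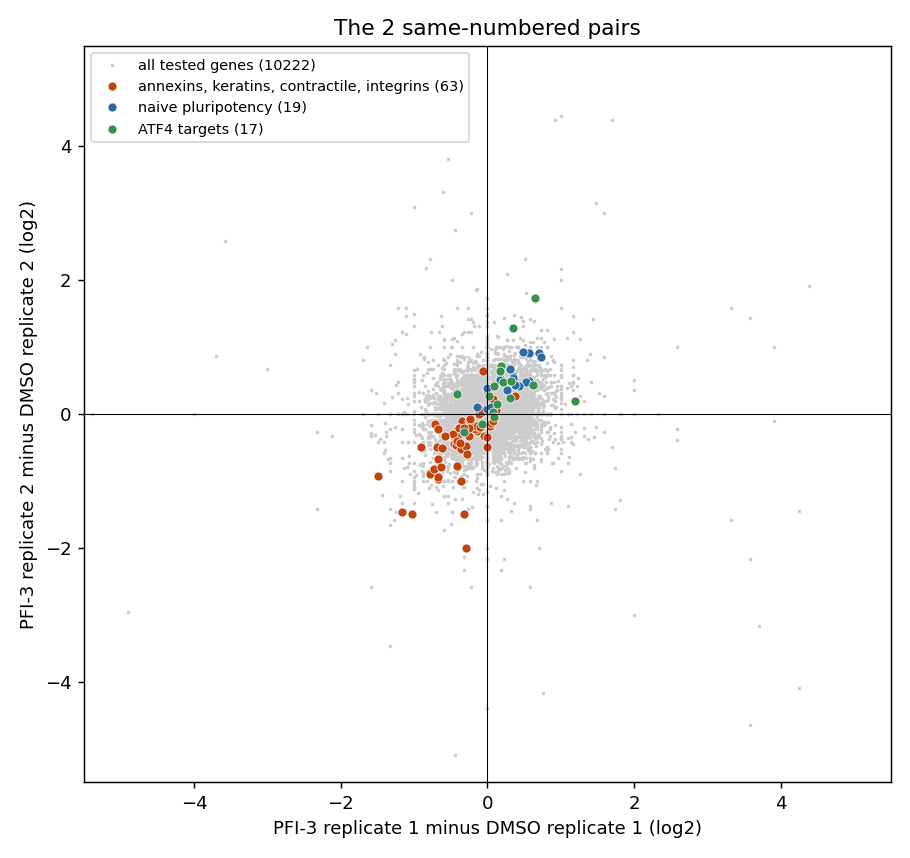
The log2 difference between PFI-3 and DMSO in pair 1 (horizontal axis) and in pair 2 (vertical axis) for the 10222 tested genes, with 2 genes outside the axes. Annexin, keratin, contractile and integrin genes (red) lie mostly to the lower left, naive pluripotency genes (blue) and ATF4 targets (green) mostly to the upper right.

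The genes of the proteins that PFI-3 binds differed by less than their standard errors. Smarca4 had 123 and 136 TPM with DMSO and 119 and 132 with PFI-3, a log2 fold change of -0.05 ± 0.07 (SE). Pbrm1 had 40 and 47 TPM with DMSO and 40 and 44 with PFI-3, a log2 fold change of -0.05 ± 0.10 (SE). The groups overlapped for both genes. Smarca2 was below the filter. Of 27 genes of other BAF subunits 22 were tested, 11 were lower and 11 higher, none had an unadjusted p under 0.05 in either direction, and their median log2 fold change was 0.01.

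Jun itself, the gene the system induces, was lower with PFI-3 in both pairs. Jun (chr4:95049034-95052222, minus strand, GENCODE M21 on mm10) had 1970 and 2877 TPM with DMSO and 1570 and 2227 with PFI-3. The replicates of a group differed more than the groups, and within each pair PFI-3 was lower by almost the same amount, -0.33 and -0.37 on the log2 scale. The fitted log2 fold change was -0.35 ± 0.04 (SE), with the lowest adjusted p of the comparison, 0.116 (limma), shared with the noncoding RNA Platr15, and an unadjusted p of 2.3e-05. Without the block, which removes the difference between pairs, the unadjusted p was 0.213. Reads of the transgene and of the cell's own Jun cannot be told apart here, nor can reads of the antisense gene Junos, since the strand handling of the counting is not given in the sources used here.

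Other AP-1 genes were mostly lower as well. Atf7 (log2 fold change 0.40) and Mafg (0.25), named for their direction, were among the 4 higher members. Atf3, a partner of JUN that stress and growth signals induce, had 29 and 32 TPM with DMSO and 17 and 20 with PFI-3, a log2 fold change of -0.69 ± 0.13 (SE) at an adjusted p of 0.157. Fosl1, which encodes the FOS family protein FRA1, had 47 and 67 TPM with DMSO and 29 and 35 with PFI-3 (-0.80 ± 0.23). For both genes each PFI-3 library was below each DMSO library, as in 12.8% of all tested genes. Jund, Junb and Bach1, a repressor that shares the AP-1 site, had log2 fold changes of -0.18, -0.36 and -0.32. Of 19 genes of the family and its small MAF partners 12 were tested, 8 were lower, 6 had an unadjusted p under 0.05 and were lower, none was so and higher, and the median log2 fold change was -0.25 against 0.02 for all tested genes.

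The study names 6 targets of JUN, chosen in the study's own experiments and so no independent evidence of direction, and 3 of these passed the filter. Anxa1, which encodes the phospholipid-binding protein annexin A1, had 63 and 52 TPM with DMSO and 39 and 26 with PFI-3. The groups did not overlap, as in the 12.8% of all tested genes with both PFI-3 libraries lower. The log2 fold change of Anxa1 was -0.83 ± 0.16 (SE) at an adjusted p of 0.157 (limma). Fosl1 is given above, and Fosl2, the gene of FRA2, had 35 and 34 TPM with DMSO and 24 and 29 with PFI-3, a log2 fold change of -0.37 ± 0.17. All 3 were lower, 2 with an unadjusted p under 0.05. Of the 3 below the filter, Runx1, the gene of a blood transcription factor, had 4 and 9 TPM with DMSO and 2 and 3 with PFI-3, which are low and coarse values.

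Genes that tie cells to the matrix were lower. The gene of the laminin receptor subunit integrin alpha 3, Itga3, had 61 and 75 TPM with DMSO and 35 and 40 with PFI-3, a log2 fold change of -0.84 ± 0.13 (SE) at an adjusted p of 0.147. Its relative Itga6 had 201 and 177 TPM with DMSO and 147 and 130 with PFI-3, a log2 fold change of -0.45 ± 0.07. Neither gene's groups overlapped, which with PFI-3 lower held for 12.8% of all tested genes. Itga5, for the fibronectin receptor, and Itgb1, for the shared beta subunit, had log2 fold changes of -0.35 and -0.17. Of 21 integrin genes 8 were tested and 7 were lower, 5 of them with an unadjusted p under 0.05, at a median of -0.32. Lama3, the gene of a laminin chain, had a log2 fold change of -0.54. Over the matrix list 15 of 19 tested genes were lower, with 4 lower and 1 higher at an unadjusted p under 0.05, and the median was -0.09. In the focal adhesion plaque list 18 of 23 were lower, 4 at an unadjusted p under 0.05, at a median of -0.15, among them Pdlim7, a LIM protein on actin (-0.36), and Actn1, the actin crosslinker (-0.28).

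Genes of the contractile cytoskeleton were mostly lower as well. Flnc, the gene of the actin crosslinker filamin C, had 52 and 61 TPM with DMSO and 25 and 21 with PFI-3, a log2 fold change of -1.26 ± 0.24 (SE) at an adjusted p of 0.157. Tgm2, the gene of tissue transglutaminase, had 26 and 21 TPM with DMSO and 11 and 7 with PFI-3 (-1.31 ± 0.26). For both genes the higher PFI-3 library lay well below the lower DMSO library. Both PFI-3 libraries were below both DMSO libraries in 12.8% of all tested genes. Csrp1, for an actin-bundling LIM protein, had 165 and 126 TPM with DMSO and 122 and 91 with PFI-3 (-0.45 ± 0.07), and Tpm1, for tropomyosin, had 132 and 122 TPM against 99 and 92 (-0.41 ± 0.08). Actb, the gene of an abundant actin, had 2648 and 2542 TPM with DMSO and 2219 and 2370 with PFI-3. Its log2 fold change of -0.18 ± 0.04 was near the median of the contractile list. Of 22 tested genes 19 were lower, 11 with an unadjusted p under 0.05 and none higher at that p, and the median was -0.20.

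Annexins and S100 proteins, calcium-dependent partners at the cell membrane, had the lowest median of the lists with at least 10 tested genes, -0.44. Of 12 tested genes 10 were lower, all 10 with an unadjusted p under 0.05. S100a10 had 304 and 270 TPM with DMSO and 250 and 179 with PFI-3 (-0.44 ± 0.09 SE), and S100a11 had 665 and 492 TPM against 509 and 426 (-0.30 ± 0.06). S100a6 differed more between replicates than between groups, at 387 and 151 TPM with DMSO and 315 and 108 with PFI-3, and was lower within each pair (-0.39 ± 0.08). Keratins and epithelial junction genes were also lower. Krt18 had 103 and 89 TPM with DMSO and 66 and 51 with PFI-3 (-0.71 ± 0.12) at an adjusted p of 0.147, and Krt8, its filament partner, had 163 and 114 TPM against 101 and 81 (-0.59 ± 0.12). Cldn6, a tight junction claudin, had 103 and 143 TPM with DMSO and 64 and 74 with PFI-3 (-0.81 ± 0.16), and Dsp, the gene of the desmosome protein desmoplakin, 48 and 56 TPM against 31 and 39 (-0.56 ± 0.12). Of 21 tested genes 19 were lower, 11 with an unadjusted p under 0.05 and none higher at that p, at a median of -0.23. Trophoblast also expresses Krt8 and Krt18, and its summed markers were lower too, as given above, through Plet1, since the other tested markers Tfap2c and Eomes had log2 fold changes of 0.28 and 0.34. The part of such cells in the difference was not tested.

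Proteases and their inhibitors were lower in 10 of 10 tested genes, against 45.3% of all tested genes, and in 4 at an unadjusted p under 0.05, against 5.26%, with a median of -0.33. Plaur, the gene of the urokinase receptor, had 304 and 255 TPM with DMSO and 220 and 216 with PFI-3 (-0.35 ± 0.08 SE), and Timp1, a metalloprotease inhibitor, 194 and 191 TPM against 154 and 119 (-0.50 ± 0.13). Neither gene's groups overlapped between PFI-3 and DMSO, as in the 12.8% of all tested genes with both PFI-3 libraries lower. Of 17 tested targets of the YAP coactivator, which senses adhesion, 12 were lower, 4 at an unadjusted p under 0.05, at a median of -0.11, which changed sign in 1 of 18 alternative settings. The leading ones were Cyr61, a matricellular protein gene, with 256 and 217 TPM against 177 and 129 (-0.64 ± 0.11), and Gadd45a, a stress gene, with 87 and 112 TPM against 62 and 73 (-0.55 ± 0.10).

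Several genes of membrane or secreted proteins, chosen after their values were seen, were among the 12 with the smallest unadjusted p. Emp1, an epithelial membrane protein gene (chr6:135362545-135383173, plus strand), had 136 and 141 TPM with DMSO and 80 and 75 with PFI-3, a log2 fold change of -0.83 ± 0.11 (SE) at an adjusted p of 0.147. Plet1, a placental and epithelial surface protein gene (chr9:50494525-50505482, plus strand), had 163 and 134 TPM with DMSO and 92 and 74 with PFI-3 (-0.83 ± 0.12). Hbegf, which encodes an EGF receptor ligand, had 45 and 32 TPM with DMSO and 22 and 15 with PFI-3 (-1.02 ± 0.15). Myadm, for a membrane protein of the myelin and lymphocyte protein family, had 296 and 310 TPM with DMSO and 227 and 227 with PFI-3 (-0.41 ± 0.06). In each of these genes, chosen for small p, both PFI-3 libraries lay below both DMSO libraries, against 12.8% of all tested genes.

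The letters TGANTCA, a loose form of the AP-1 site with any base in the middle, were searched on either strand. The search covered RefSeq promoter windows on GRCm38.p6, from 250 bases before to 50 bases after each start. Windows were held for 7783 of the 10222 tested genes, several with more than 1 start. The letters stood in 50 of 540 windows (9.26%) of genes lower at an unadjusted p under 0.05, in 32 of 557 (5.75%) of genes higher at that p, in 4.55% of the 9946 windows of tested genes and in 7.81% of all 32851 windows. The related cAMP response element TGACGTCA, a different word that holds no TGANTCA, stood in 2.41% of the lower, 3.05% of the higher and 3.36% of all tested windows. A match is a description of letters only. The windows of 3 lower genes are shown because each holds these letters, in capitals, with the rest in lower case. They were chosen for holding the letters. The windows of other lower genes, among them Jun, Anxa1, Flnc, Krt8, Krt18 and Cldn6, did not hold them. In Emp1 the first base of the matches lies at -145 and -25 from the start, in Plet1 at -144 and in Plaur at -69. The match at -25 in Emp1 and that in Plet1 read TGATTCA, with T where stricter forms of the site have C or G.
Emp1, chr6:135362681-135362980, plus strand: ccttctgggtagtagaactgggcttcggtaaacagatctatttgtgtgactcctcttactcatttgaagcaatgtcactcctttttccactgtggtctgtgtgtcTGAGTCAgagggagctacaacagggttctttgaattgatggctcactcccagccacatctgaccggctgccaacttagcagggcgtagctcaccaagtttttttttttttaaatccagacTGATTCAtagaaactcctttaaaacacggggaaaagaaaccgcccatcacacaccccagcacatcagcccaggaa
Plet1, chr9:50494275-50494574, plus strand: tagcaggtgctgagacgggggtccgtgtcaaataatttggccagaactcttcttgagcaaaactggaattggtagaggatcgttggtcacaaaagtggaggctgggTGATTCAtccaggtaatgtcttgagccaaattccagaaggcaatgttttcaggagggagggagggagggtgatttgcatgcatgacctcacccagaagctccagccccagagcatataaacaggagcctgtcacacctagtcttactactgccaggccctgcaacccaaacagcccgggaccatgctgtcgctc
Plaur, chr7:24462233-24462532, plus strand: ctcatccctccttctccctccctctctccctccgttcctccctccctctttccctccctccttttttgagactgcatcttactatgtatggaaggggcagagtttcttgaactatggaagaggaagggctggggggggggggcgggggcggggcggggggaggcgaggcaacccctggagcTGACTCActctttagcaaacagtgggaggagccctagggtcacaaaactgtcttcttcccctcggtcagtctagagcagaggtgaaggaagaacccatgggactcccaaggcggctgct

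**Figure D2:**
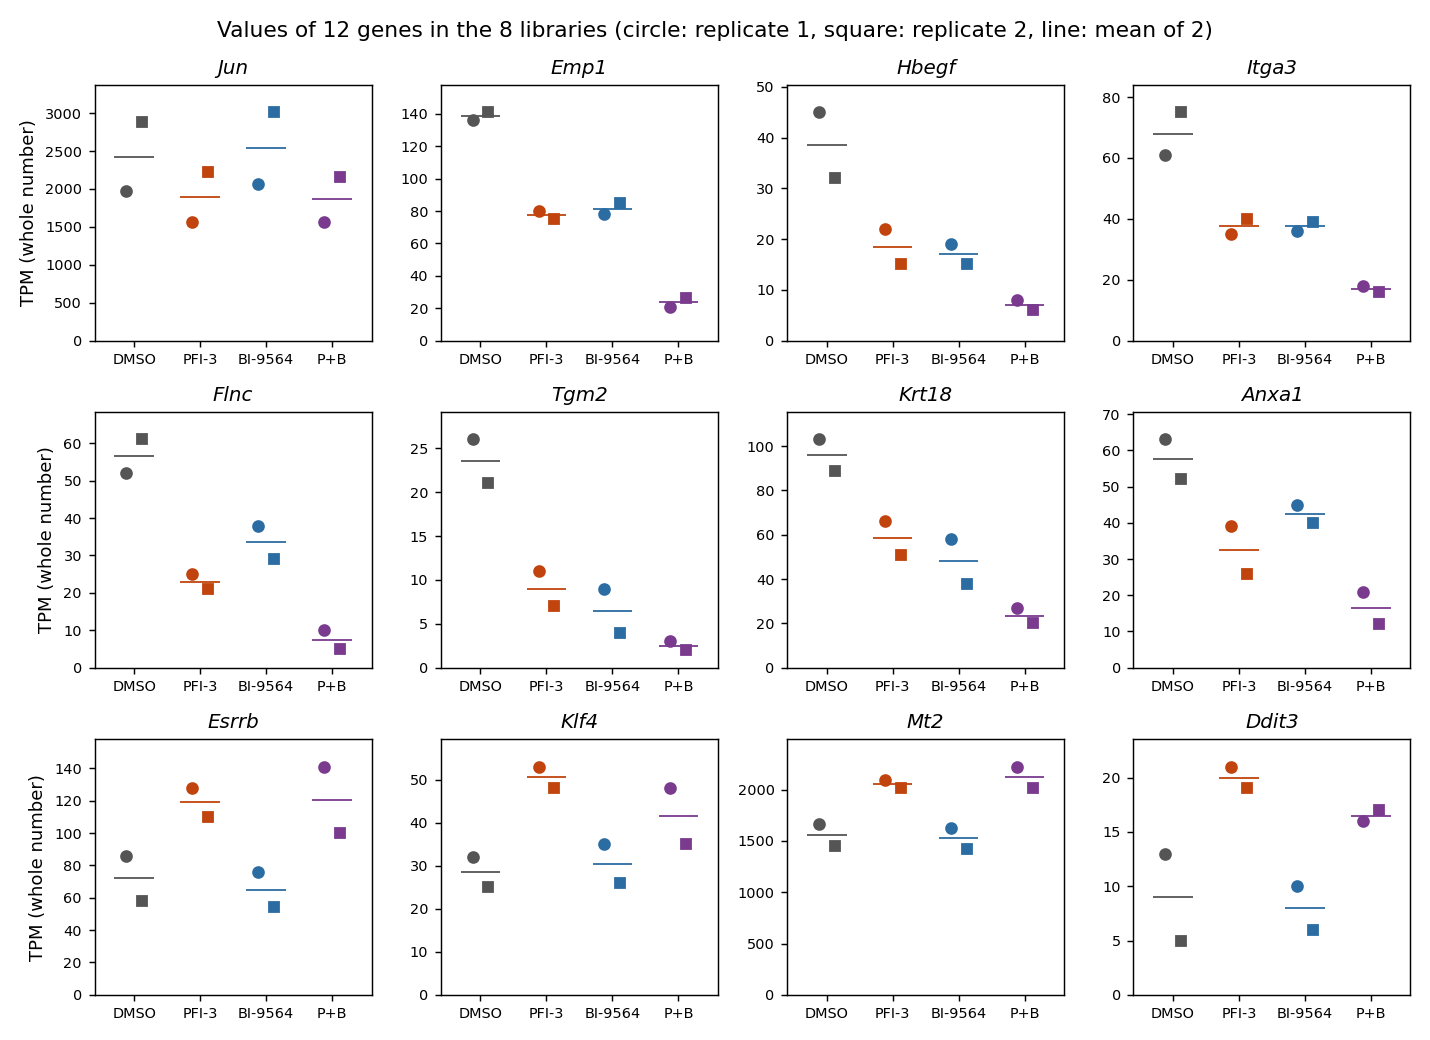
TPM (vertical axes, from 0) of 12 genes in the 8 libraries, by group (horizontal axes), circles for replicate 1, squares for replicate 2 and a line at the mean of 2. In the upper 8 panels the PFI-3 mean is below the DMSO mean, with overlapping groups for Jun only, and in the lower 4 it is above. Over all tested genes the PFI-3 and DMSO groups lay apart in 29.3%.

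Genes of naive pluripotency, the state that 2i and LIF hold, were higher with PFI-3. Esrrb, the gene of an orphan nuclear receptor of the naive network (chr12:86361117-86521628, plus strand), had 86 and 58 TPM with DMSO and 128 and 110 with PFI-3, a log2 fold change of 0.74 ± 0.10 (SE) at an adjusted p of 0.147. Klf4 had 32 and 25 TPM with DMSO and 53 and 48 with PFI-3 (0.81 ± 0.12), and Klf2, its relative in the same network, 65 and 52 TPM against 109 and 95 (0.80 ± 0.12). The groups did not overlap for these 3 transcription factor genes, as in the 16.5% of all tested genes with both PFI-3 libraries higher. Nr0b1, which encodes the corepressor DAX1, had 44 and 30 TPM with DMSO and 62 and 58 with PFI-3 (0.71 ± 0.15). Nanog overlapped between groups, at 71 and 40 TPM with DMSO and 106 and 57 with PFI-3, and was higher within each pair (0.54 ± 0.12). Of 20 naive genes 19 were tested, 18 were higher, 11 of them with an unadjusted p under 0.05, none was lower at that p, and the median was 0.42, the highest of all lists. Platr15, a noncoding RNA of ESCs chosen after its values were seen, had the smallest unadjusted p of the comparison, 1.8e-05, with 142 and 97 TPM with DMSO and 218 and 168 with PFI-3 (0.70 ± 0.07).

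Among the 10 ESC markers 9 were higher, 6 with an unadjusted p under 0.05 and none lower at that p, at a median of 0.36. This list shares Esrrb, Klf4 and Nanog, among others, with the naive list. Its members Pou5f1, Sox2 and Utf1 lay nearer the median of all tested genes. Pou5f1, the gene of OCT4, had 1273 and 1281 TPM with DMSO and 1333 and 1299 with PFI-3 (0.04), and Sox2 107 and 93 TPM against 111 and 100 (0.08). Utf1 had 311 and 290 TPM with DMSO and 291 and 262 with PFI-3 (-0.12). Genes of the primed state, which follows the naive one, were mixed, with 4 of 7 tested lower and a median of -0.08 that kept its sign in 15 of 18 alternative settings. Among them the DNA methyltransferase genes Dnmt3l and Dnmt3b had log2 fold changes of -0.21 and -0.20.

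Targets of WNT and BMP, signals that support self-renewal of mouse ESCs, included genes that were higher. Id1, a BMP target, had 139 and 121 TPM with DMSO and 189 and 191 with PFI-3, a log2 fold change of 0.55 ± 0.08 (SE) at an adjusted p of 0.147. Axin2, the feedback inhibitor that WNT induces, had 17 and 26 TPM with DMSO and 25 and 43 with PFI-3 (0.62 ± 0.14), overlapping between groups and higher within each pair. Sp5 (0.72) and Cdx1 (0.49), both WNT targets, were at or below 30 TPM in these libraries. Of 12 tested genes 8 were higher, 4 with an unadjusted p under 0.05, at a median of 0.10. In the NODAL and TGF beta list 11 of 13 were higher at a median of 0.19, 1 of them with an unadjusted p under 0.05, Tdgf1, the NODAL coreceptor, with 163 and 156 TPM against 221 and 196 (0.38 ± 0.11). That count is near the background of 5.92% of all tested genes. In P+B minus BI-9564 the list split into 6 lower and 7 higher.

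Immediate early and ERK-responsive genes went both ways. Errfi1, a feedback inhibitor of the EGF receptor, had 63 and 62 TPM with DMSO and 41 and 29 with PFI-3, a log2 fold change of -0.84 ± 0.14 (SE) at an adjusted p of 0.149. Dusp1, a MAP kinase phosphatase gene, had 331 and 350 TPM with DMSO and 252 and 263 with PFI-3 (-0.40 ± 0.08), and Ier5 20 and 31 TPM against 12 and 18 (-0.72 ± 0.16). Ier2 was on the other side, at 95 and 104 TPM with DMSO and 116 and 135 with PFI-3 (0.33 ± 0.08). Of 21 tested immediate early genes 12 were lower, 5 of them and 1 higher gene with an unadjusted p under 0.05, at a median of -0.05. Among ERK targets Phlda1 had 282 and 269 TPM with DMSO and 223 and 190 with PFI-3 (-0.42 ± 0.08), while Etv5 had 146 and 109 TPM against 185 and 147 (0.38 ± 0.07) and Spry2, an inhibitor of the pathway, 19 and 17 TPM against 31 and 33 (0.80 ± 0.15). Of the 16 tested, 9 were lower, and 4 lower and 2 higher had an unadjusted p under 0.05.

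Genes of the ATF4 response to amino acid stress were higher. Atf4 had 305 and 297 TPM with DMSO and 383 and 419 with PFI-3, a log2 fold change of 0.41 ± 0.07 (SE) at an adjusted p of 0.157. Ddit3, which encodes the stress factor CHOP, had 13 and 5 TPM with DMSO and 21 and 19 with PFI-3 (1.19 ± 0.31). Psat1, an enzyme of serine synthesis, had 179 and 225 TPM against 221 and 265 (0.27 ± 0.06), overlapping between groups and higher within each pair. Of 17 tested genes 14 were higher, 8 with an unadjusted p under 0.05 and 1 lower at that p, Cth, and the median was 0.27. In the unfolded protein response 17 of 20 were higher, 8 at that p and none lower, at a median of 0.13. Manf, for a protein that the stressed endoplasmic reticulum secretes, had 162 and 166 TPM with DMSO and 219 and 222 with PFI-3 (0.42 ± 0.09), and the chaperone gene Hspa5 378 and 385 TPM against 450 and 456 (0.25 ± 0.06). Cytosolic heat shock genes lay on the other side, with 17 of 19 lower, 6 at an unadjusted p under 0.05 and none higher, at a median of -0.12.

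Genes of sterol and fatty acid synthesis were higher in 24 of 29 tested, 11 with an unadjusted p under 0.05 and none lower at that p, at a median of 0.16. Mvd, an enzyme of the mevalonate pathway, had 39 and 46 TPM with DMSO and 61 and 73 with PFI-3, a log2 fold change of 0.64 ± 0.11 (SE) at an adjusted p of 0.157. The fatty acid desaturase gene Scd2 had 95 and 135 TPM against 128 and 231 (0.60 ± 0.10), with the second DMSO library above the first PFI-3 library and PFI-3 higher within each pair. Scd1, a second desaturase, had 22 and 23 TPM with DMSO and 31 and 37 with PFI-3 (0.57 ± 0.13).

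The metallothionein genes, whose small proteins bind zinc and other metals, had among the smallest unadjusted p. Mt2 had 1666 and 1451 TPM with DMSO and 2089 and 2011 with PFI-3, a log2 fold change of 0.40 ± 0.05 (SE) at an adjusted p of 0.117. Mt1 had 925 and 777 TPM with DMSO and 1253 and 1123 with PFI-3 (0.48 ± 0.06), at an adjusted p of 0.12. The groups did not overlap for these neighbours on chr8, as in the 16.5% of all tested genes with both PFI-3 libraries higher. In the oxidative stress and metallothionein list as a whole 10 of 15 tested genes were higher, 2 of them, Mt1 and Mt2, with an unadjusted p under 0.05, 1 gene, Srxn1, was lower at that p, and the median was 0.09. The zinc sensor MTF1 acts at the metal response element, and TGCNCNC, a loose form of its core, was searched on either strand. These letters stood in 60.1% of the windows of tested genes, and 3 or more times in 10.2%. The window of each metallothionein gene is shown because the genes are adjacent and differed in the same direction. It held 3 matches in Mt1 and 6 in Mt2, in capitals. In Mt2 the matches TGCTCTC and GGGAGCA, the latter on the other strand, have T where stricter forms of the core have A or G. The window of Mt2, a gene that was higher, also held the AP-1 letters once, in lower case.
Mt1, chr8:94178839-94179138, plus strand: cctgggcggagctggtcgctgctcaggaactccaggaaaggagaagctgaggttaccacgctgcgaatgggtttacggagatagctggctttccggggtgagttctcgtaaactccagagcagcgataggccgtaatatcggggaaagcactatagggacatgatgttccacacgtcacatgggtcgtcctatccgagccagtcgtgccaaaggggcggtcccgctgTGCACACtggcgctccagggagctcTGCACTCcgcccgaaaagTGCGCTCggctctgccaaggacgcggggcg
Mt2, chr8:94172368-94172667, plus strand: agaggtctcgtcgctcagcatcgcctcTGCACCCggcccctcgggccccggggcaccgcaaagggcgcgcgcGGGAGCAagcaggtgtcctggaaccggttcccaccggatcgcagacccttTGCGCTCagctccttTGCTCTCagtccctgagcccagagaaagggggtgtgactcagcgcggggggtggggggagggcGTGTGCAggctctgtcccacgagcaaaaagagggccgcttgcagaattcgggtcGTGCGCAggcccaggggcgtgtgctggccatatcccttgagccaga

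Ribosomal, respiratory chain, cell cycle and glycolysis genes had medians near that of all tested genes. The 85 tested cytosolic ribosomal genes had a median log2 fold change of -0.01, with 3 lower and 2 higher at an unadjusted p under 0.05. The 75 nuclear genes of the respiratory chain had a median of 0.03, with 3 lower and 5 higher. The 29 G1/S genes had a median of 0.00, with 0 lower and 2 higher, and the 28 G2/M genes a median of 0.00, with 2 of each. Glycolysis and hypoxia genes had a median of -0.02 over 24. Of 13 mitochondrially encoded genes 12 were higher, 5 with an unadjusted p under 0.05, at a median of 0.11. The list's median was 0.20 in pair 1 and 0.0040 in pair 2, and mt-Co3 was lower at that p (-0.08), though at 0.053 under quantile normalization. Targets of p53 had a median of -0.05 over 19, with 3 lower and 1 higher at an unadjusted p under 0.05. Of 12 tested genes known to respond to BET inhibition, 1 had an unadjusted p under 0.05, Myc, with 40 and 32 TPM with DMSO and 26 and 25 with PFI-3 (-0.47 ± 0.14 SE).

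**Figure D3:**
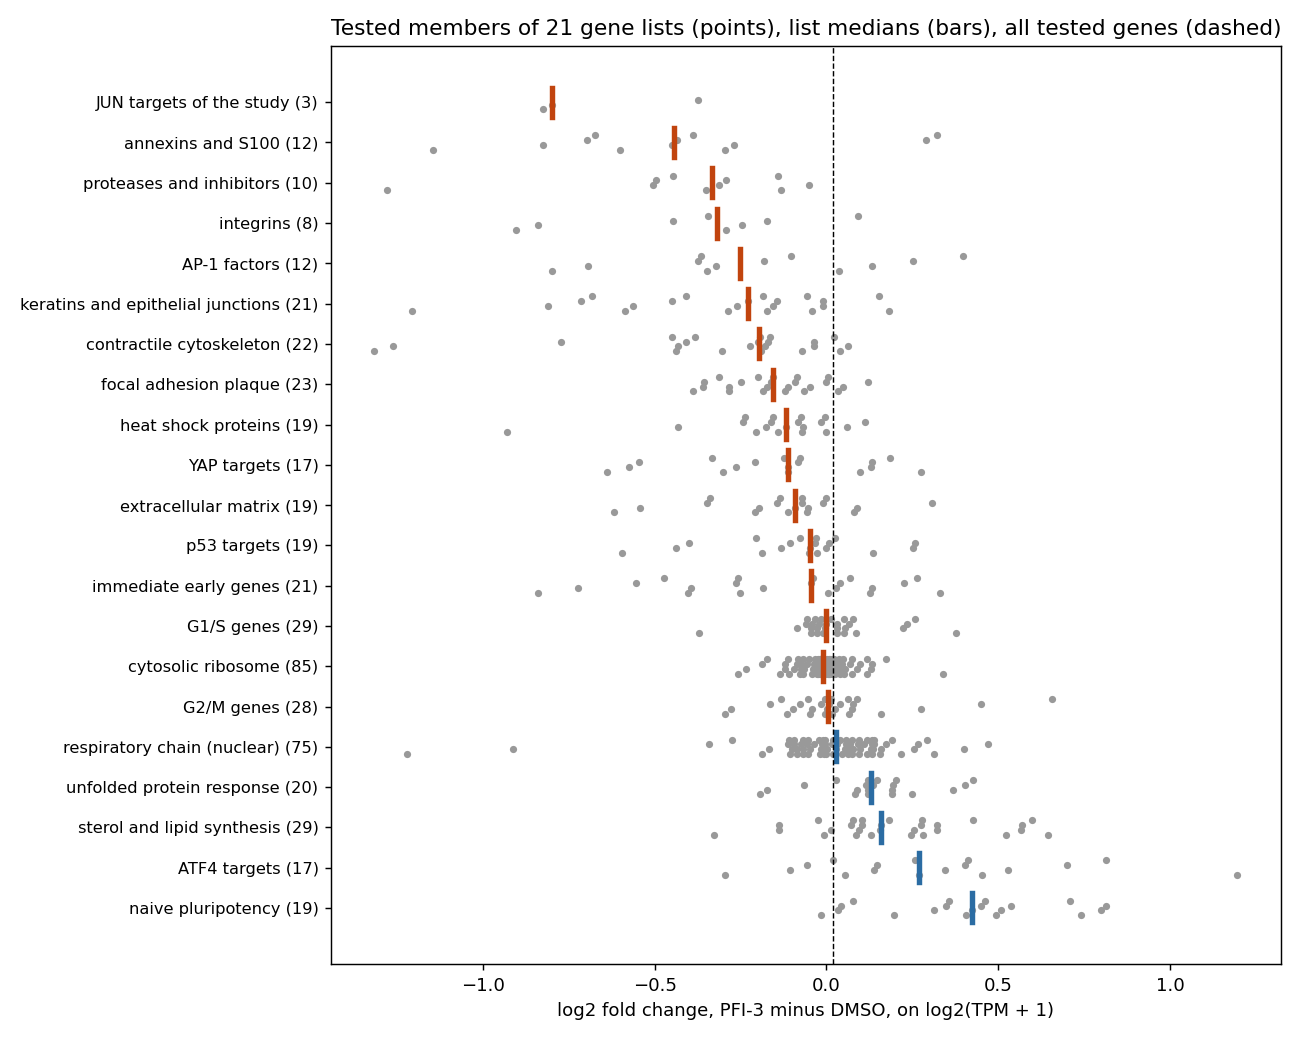
The fitted log2 fold change of PFI-3 minus DMSO (horizontal axis, on log2(TPM + 1)) for the tested members of 21 lists, number tested in parentheses, with a bar at each list's median, red below and blue above the dashed line at the median of all tested genes. The JUN targets of the study, annexins, proteases, integrins and AP-1 genes have medians from -0.80 to -0.25, and naive pluripotency genes the highest, 0.42.

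The largest fitted differences came mostly from low genes. Of the tested genes, 183 had an unadjusted p under 0.05 and at least 1.5-fold the same direction in both pairs, 94 lower and 89 higher, of which 8 lower and 24 higher were predicted genes or pseudogenes by name. The 12 genes selected for the lowest log2 fold change ran from -2.39 (Hist1h2ap, a histone gene at 9 and 10 TPM with DMSO and 3 and 0 with PFI-3) to -1.21 (Krt19). They held the keratin gene Krt16 (33 and 11 TPM against 13 and 3) and the skin gene Dmkn (38 and 27 TPM against 16 and 11), beside Flnc and Tgm2. They also held Fbp2, Endod1, Cox7a1 and Sap18, a histone deacetylase complex subunit with 19 and 18 TPM against 7 and 5 (-1.49 ± 0.25 SE). The 12 with the highest ran from 0.94 (Armcx1) to 3.05 (Mrpl23). Mrpl23, for a mitochondrial ribosomal protein, had 3 and 0 TPM with DMSO and 12 and 20 with PFI-3, and its processed copy Mrpl23-ps1 had 48 and 53 TPM against 53 and 49, so the split of reads between them is uncertain. Pagr1a, for a histone methyltransferase partner, had 4 and 7 TPM with DMSO and 13 and 70 with PFI-3. The gene Gm42742 overlaps it on the same strand and had 64 and 67 TPM with DMSO and 47 and 1 with PFI-3, so the library with high Pagr1a was the one with low Gm42742. Apart from Mrpl23 and Pagr1a, the higher genes, among them Ddit3, Ccl27a, Ttc23, Rfxap and H2-T22, were at or below 27 TPM in all 4 libraries.

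P+B against BI-9564 measures the addition of PFI-3 if both groups held the same dose of BI-9564. It takes 4 libraries that the comparison with DMSO did not use, and the direction of the differences recurred there. Of the 538 genes lower with PFI-3 alone at an unadjusted p under 0.05, 443 (82.3%) were lower in P+B than in BI-9564, against 44.3% of all tested genes. Of the 605 higher genes 460 (76%) were higher, against 54.5%. Of the 101 genes at least 1.5-fold lower in both pairs, 52 (51.5%) were also at least 1.5-fold lower in P+B than in BI-9564, against 3.15% of all tested genes. Of the 106 at least 1.5-fold higher in both pairs, 21 (19.8%) were also at least 1.5-fold higher, against 2.83%. At that size 123 (22.9%) of the 538 lower and 38 (6.28%) of the 605 higher genes recurred. Low genes reach 1.5-fold more easily, so all tested genes are no matched background for the 1.5-fold shares. Across genes the Pearson correlation between both sets of log2 fold changes was 0.29 (n = 10222), and both come from 1 fit with a shared spread. The labels give no doses, so whether P+B held as much of each compound as the single treatments is not known here. For its colony assay the paper gives less of each compound in P+B than alone. The contrast cannot tell added PFI-3 from a change in the dose of BI-9564.

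In that comparison 74 genes (0.724%) fell and 8 (0.0783%) rose at the threshold (limma, adjusted p under 0.05 and at least 1.5-fold). With PFI-3 alone 73 of the 74 were lower, against 45.3% of all tested genes, at a median of -0.52. At an unadjusted p under 0.05, 66 of the 74 were lower, against 5.26% of all tested genes. The fit gives a gene the same standard error in both comparisons. Genes chosen for a small p in one therefore reach a small p more easily in the other. Emp1 went from 78 and 85 TPM in the BI-9564 libraries to 21 and 26 in the P+B libraries, and fell by 1.76 on the log2 scale at an adjusted p of 0.00404. Flnc fell by 2.07 from 38 and 29 TPM to 10 and 5, Anxa1 by 1.36 from 45 and 40 TPM to 21 and 12, Itga3 by 1.10 from 36 and 39 TPM to 18 and 16, and Jun, under the fold threshold, had 2071 and 3011 TPM against 1569 and 2159. Of these genes only Jun overlapped between groups. The share of all tested genes without overlap was not determined for P+B against BI-9564. Between PFI-3 and DMSO it was 29.3%. Among the 74 that fell were 5 of 21 tested keratin and junction genes, 4 of 21 immediate early genes and 3 of 16 ERK targets. They also held 3 of 12 annexin and S100 genes, 3 of 12 AP-1 genes and 2 of 8 integrins. Matrix genes had 2 of 19 and YAP targets 2 of 17. The 3 of 3 JUN targets that fell, Anxa1, Fosl1 and Fosl2, also stand in the annexin or AP-1 list. The 8 genes that rose, named after their values were seen, were Sp5, Mipol1, Gbx2, Cdx1, Zbtb34, Esrrb, Acot13 and Mt1. All 8 were higher with PFI-3 alone, 6 at an unadjusted p under 0.05, against 5.92% of all tested genes. Sp5 rose from 4 and 10 TPM in the BI-9564 libraries to 22 and 37 in the P+B libraries, against 3 and 8 with DMSO and 6 and 13 with PFI-3 alone. Without the block 20 genes fell and 0 rose, and 0 passed in limma without a variance trend. Fits that left out 1 library gave at most 20 lower and 2 higher genes, and 0 of both without BI-9564 replicate 1, BI-9564 replicate 2 or P+B replicate 2. A test of whether the addition of PFI-3 had a different effect with and without BI-9564 (the interaction in limma) passed in 0 genes, with 588 at an unadjusted p under 0.05 and a smallest adjusted p of 0.672.

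**Figure D4:**
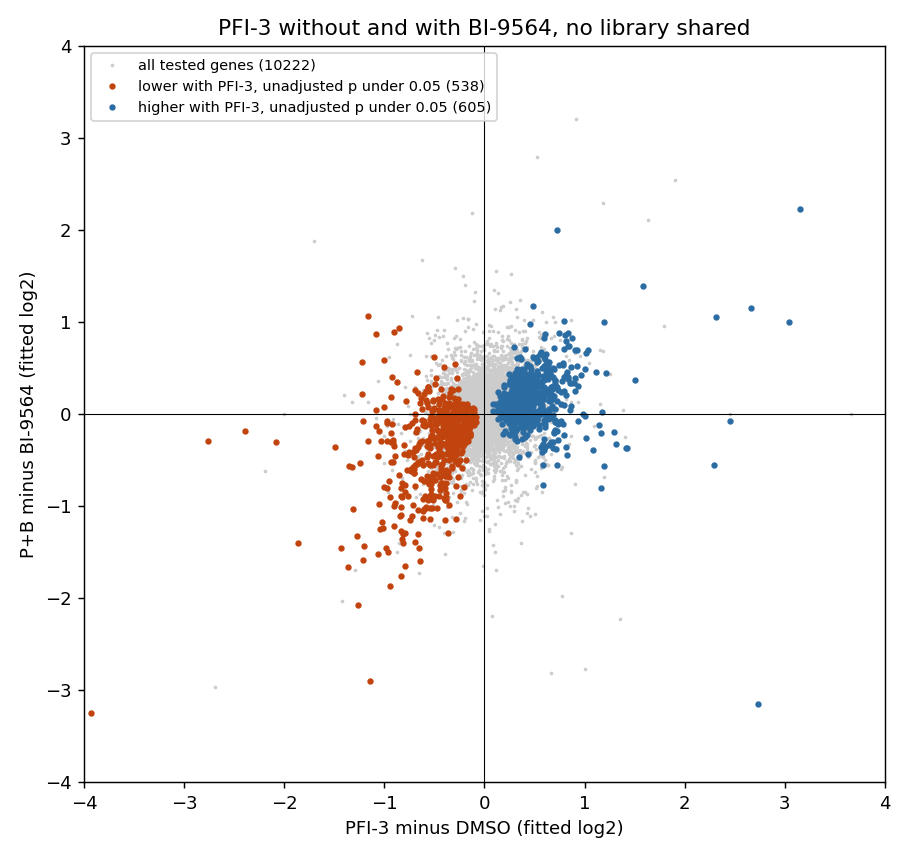
The fitted log2 fold change of PFI-3 minus DMSO (horizontal axis) and of P+B minus BI-9564 (vertical axis) for the 10222 tested genes, with 3 genes outside the axes and those at an unadjusted p under 0.05 on the horizontal axis coloured. Of the red genes 82.3% lie below the horizontal zero line and of the blue genes 76% above it.

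The single compounds were also compared with each other directly. Between BI-9564 and PFI-3, 151 genes (1.48%) passed the threshold, 51 higher and 100 lower with BI-9564. With no block 11 passed, 0 in limma without a variance trend, and 0 or 1 in each fit that left out 1 library, controls included. Of the naive pluripotency genes 7 of 19 were lower with BI-9564 than with PFI-3 at the threshold, among them Esrrb (76 and 54 TPM with BI-9564), Klf4 (35 and 26 TPM) and Nanog (59 and 29 TPM), with log2 differences of -0.88, -0.72 and -0.89. ATF4 targets had 4 genes that were lower with BI-9564, Atf4 itself with 244 and 227 TPM (-0.76) and Trib3, Chac1 and Nupr1. Targets of p53 had 7 of 19 genes higher with BI-9564, among them Cdkn1a (0.78), Mdm2 (0.62) and Plk2 (0.94). Of integrins and of JUN targets none differed at the threshold, where Itga3 had 36 and 39 TPM with BI-9564 and 35 and 40 with PFI-3. Jun was higher with BI-9564 than with PFI-3 by 0.42 on the log2 scale at an adjusted p of 0.00961, below the fold threshold.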

How the data were processed

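RNA-seq of 8 libraries, 2 for each of DMSO, PFI-3, BI-9564 and P+B, was used, grouped by the labels. The submitters' processing notes name bcl2fastq, Bowtie2 2.2.5 and RSEM 1.3.0 and the build mm10. The annotation and the strand setting are not given in the sources used here, and the labels and the paper name different versions of the library kit. The authors deposited 1 table of 50600 gene names, in which each score is a TPM value made a whole number. All values were whole, 33075 rows held 0 in all libraries, 94 shared their name with another row and 27 bore a date for a name. Since TPM is no count, tests of raw counts were not used.

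All 8 libraries entered 1 linear model of log2(value + 1), with the group and, as a block, the replicate number. It was run in R 4.3.3 by limma 3.58.1, whose variance moderation (eBayes) followed the mean. A fold change on this scale understates low genes. P-values were adjusted by Benjamini-Hochberg over the 10222 genes whose mean reached 5, and the thresholds were an adjusted p under 0.05 and 1.5-fold, exact 1.5-fold ties included. The replicate numbers in the labels were taken to pair libraries by the design of the comparison. The difference between replicates 1 and 2 correlated over 0.1 between every 2 groups (Pearson's r 0.143 to 0.236 over tested genes).

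Genes named are all members of the JUN target and PFI-3 target lists, the 12 lowest and 12 highest fitted changes among genes with an unadjusted p under 0.05 and 1.5-fold in both pairs (leaving out names in Gm, Rik and -ps), and up to 4 genes of each other list by smallest p, beside those said to be chosen after their values were seen. Some genes that this rule selects are not reported here. The gene lists and the rule were chosen with earlier results of these data known. Lists are described by counts and medians and were not tested. Alternatives were the fit without the block, pseudocounts of 0.5 and 5, other filters, quantile normalization, median centring, no trend, a fit of the 4 libraries alone, no fold threshold and leaving out each library. Positions are from GENCODE M21 and promoter windows from RefSeq, both on GRCm38.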

Additional observations from a re-analysis of the deposited data

Results flagged for a closer look

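The groups hold 2 libraries each, so no single library was tested for standing apart. In 7 of the named genes both pairs went one way with PFI-3 against DMSO and both pairs the other way with P+B against BI-9564. In the limma interaction test over all genes, adjusted by Benjamini-Hochberg, none of the 7 passed, and the smallest adjusted p was 0.672. Chosen for opposite signs, they are listed by the log2 difference of the effects, P+B minus BI-9564 less PFI-3 minus DMSO. The difference was -1.64 for Ttc23, where PFI-3 had 17 and 21 TPM against 7 and 7 in DMSO, and P+B had 8 and 10 TPM against 12 and 11 in BI-9564. It was 1.44 for Cox7a1, a respiratory chain subunit gene, where PFI-3 had 10 and 12 TPM against 30 and 24 in DMSO, and P+B had 28 and 17 TPM against 23 and 15 in BI-9564. Smaller differences were found for the ribosomal genes Rpl38 (0.29) and Rpl39 (-0.19) and for the S phase genes Tyms (-0.49) and Ccne2 (0.75). The early embryo gene Zscan4e had a difference of 0.99.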

How the results depend on the processing

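With PFI-3 alone 0 genes passed under every setting run, other than without PFI-3 replicate 1, where 1 passed, Gm42742, whose other PFI-3 library held 1 TPM. Leaving out single libraries gave 0 to 1. Of 158 named genes 153 kept their sign in all settings. The others were mt-Co3, at 0.053 under quantile normalization, and genes that turned in fits without 1 library, Pbrm1 (-0.13 to 0.035), Zscan4c (-0.27 to 0.0098), Zscan4d (-0.15 to 0.88) and Zscan4f (-0.34 to 0.31). Without the replicate block 313 genes were lower and 381 higher at an unadjusted p under 0.05, while in P+B against BI-9564 20 fell and 0 rose, and 11 differed between BI-9564 and PFI-3. Median centring gave 823 lower genes. Without 1 library the lower genes were 401 to 553 and the higher ones 343 (without PFI-3 replicate 2) to 603. The genes at least 1.5-fold in both pairs were 55 lower and 36 higher with a pseudocount of 5, 303 and 345 with a filter at a mean of 1, 31 and 18 at a mean of 20, and 466 and 474 with no filter. The shares with the same direction in P+B minus BI-9564 were 71.7% of the lower and 69.3% of the higher genes with no filter, 69.3% of the higher under median centring, and 77.8% of the lower without a trend. At a filter of a mean of 1, 33 genes fell and 3 rose in P+B against BI-9564 and 37 differed between BI-9564 and PFI-3, and with no filter or no trend 0, 0 and 0. Without 1 library the counts in P+B against BI-9564 were 0 to 20 lower (20 without either DMSO library, 11 without either PFI-3 library, 0 without BI-9564 replicate 1, BI-9564 replicate 2 or P+B replicate 2, and 1 without P+B replicate 1) and 0 to 2 higher, and those between BI-9564 and PFI-3 were 0 to 1, with 1 when PFI-3 replicate 1 was left out. These fits have fewer residual degrees of freedom, and the cause of the other shifts was not tested. The alternatives for counts other than the genes passing with PFI-3 alone and those beyond 1.5-fold in both pairs were added after the data were seen.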

Other observations

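Few genes of other cell states were expressed highly enough to be tested with PFI-3 alone. Of 33 lineage transcription factors 7 passed the filter, 5 of them higher, at a median log2 fold change of 0.28, which changed sign in 1 of 18 alternative settings. Elf3, an epithelial ETS factor, had 25 and 14 TPM with DMSO and 39 and 27 with PFI-3 (0.76). Its groups did not overlap, as in the 16.5% of all tested genes with both PFI-3 libraries higher. It was the single one of the 7 with an unadjusted p under 0.05 (adjusted p = 0.204, limma). Of 20 genes of the 2-cell-like state, a rare condition of ESC cultures, 4 were tested, all of the Zscan4 family, and none had an unadjusted p under 0.05. Their values followed the replicate number more than the compound. Zscan4f had 6 TPM in DMSO replicate 1 and 41 in DMSO replicate 2, and 8 and 31 TPM with PFI-3, and Zscan4c had 3 and 23 TPM against 3 and 19. These near-identical gene copies share reads, so their single values are uncertain.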
